A study of Drosophila melanogaster with 12 samples.

Results

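Forelegs of the CS/CO13N hybrid were compared with those of CO13N, its selective parent, across all genes in male Drosophila melanogaster. The comparison used 6 of the 12 RNA-seq libraries of the series, 3 of the hybrid and 3 of CO13N. The other 6 libraries are from the strains CS and RG11N, again 3 each, and entered the statistical model to estimate the spread between libraries. The series calls both the hybrid and CO13N selective in mating and calls CS and RG11N promiscuous, so the comparison asks how the foreleg transcriptomes differ between a pair of genotypes that are said to behave alike. The hybrid carries chromosomes of both CS and CO13N. The labels give neither the direction nor the generation of the cross, nor the age of the flies, the number of flies per library or whether flies were pooled. Replicates are labelled as biological, and the p-values measure the spread between these libraries only.

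The male foreleg of Drosophila carries taste bristles with which a male samples the cuticular pheromones of another fly before and during courtship. Some of the neurons in these bristles use the pickpocket channel subunits ppk23, ppk25 and ppk29, and many of the male-specific ones express fruitless (fru) and doublesex (dsx), transcription factors of sexual differentiation. The leg also holds muscle, glia, tracheae, epidermis and blood cells, and all of these contribute to the RNA of a whole leg. In such bulk samples, fewer cells of a type and less RNA per cell cannot be told apart.

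Total counts per library were 29465372 to 34937679 in the hybrid and 32081421 to 36034966 in CO13N, and 3 counts in a library corresponded to 0.0859 to 0.102 CPM (counts scaled to a common library size) in the hybrid and 0.0833 to 0.0935 CPM in CO13N. The 10 foreleg and leg markers, which include the segment identity gene Scr and the limb genes Dll and dac, were all detected and summed to 1159 to 1211 CPM in the hybrid and 1090 to 1226 CPM in CO13N. Markers of other segments summed to at most 3.49 CPM in the hybrid and 0.842 CPM in CO13N. A single hybrid library stood apart in antennal genes. Odorant receptors summed to 17.3, 16.0 and 250.3 CPM in hybrid libraries 1 to 3, against 13.4, 13.7 and 17.9 CPM in the CO13N libraries. Muscle genes varied within both groups, with 15901, 3580.2 and 7538 CPM in the hybrid and 27877, 5503 and 5908 CPM in CO13N. Calls were also made without each of these libraries.

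Few genes passed the test for a difference between the hybrid and CO13N. Of 10996 genes tested with edgeR's quasi-likelihood test, 28 (0.255%) were called, that is, passed a Benjamini-Hochberg adjusted p of 0.05. Of these, 22 (0.2%) were higher in the hybrid and 6 (0.0546%) were lower, and 25 code for proteins. The glutathione S-transferase gene GstE11 and the gene CG6912 rose, while Arc1 and Arc2, whose proteins form virus-like capsids and derive from a retrotransposon Gag protein, fell. The median log2 fold change over all tested genes was -0.0087, and the quartiles lay at -0.195 and 0.179. DESeq2 called 88 genes (0.803% of 10957), including all 28, and voom called 36 (0.327%), including 23 of the 28. On counts simulated with known differences, DESeq2 called 39 genes that had none, edgeR 5 and voom 3.

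**Figure D1:**
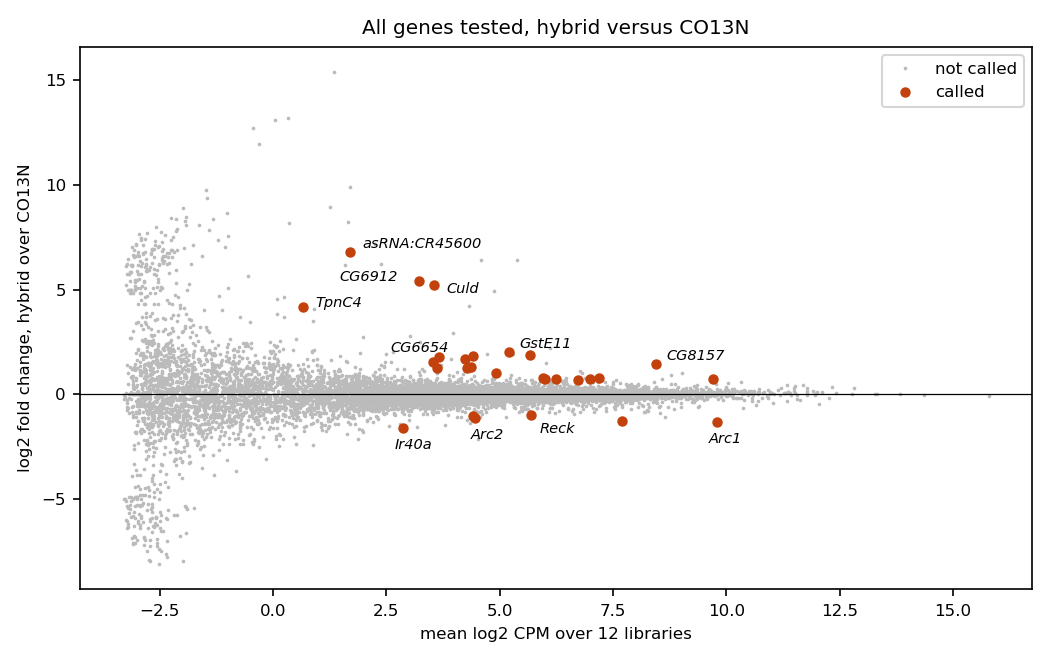
Log2 fold change of the hybrid over CO13N for each gene tested, against its mean log2 CPM over the 12 libraries; orange points mark the 28 called genes. The called genes reach 6.81 upward and -1.61 downward on the log2 scale, and the widest scatter is among uncalled genes at low mean CPM.

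A miss of the threshold does not show that a gene is equal in both groups, so intervals were also counted. For 6591 genes (59.9%) the 95% interval of the fold change lay wholly inside a 2-fold difference in either direction. For the other 4405 genes the interval reached or passed a 2-fold difference or could not be computed, and the median standard error over all genes was 0.264 on the log2 scale. An estimate of 2-fold or more was reached by 1315 genes, of which 20 were called. All 3 hybrid libraries lay above or all lay below the 3 CO13N libraries for 1264 genes (11.5%), of which 607 (5.52%) were above and 657 (5.97%) below, and this held for each of the 28 called genes. At an unadjusted edgeR p under 0.05 there were 514 genes (4.67%). Across the other pairs of genotypes in the same model, edgeR called 107 genes between the hybrid and CS (0.973%), 345 between CO13N and CS (3.14%), 492 between the hybrid and RG11N (4.47%), 451 between CO13N and RG11N (4.1%) and 634 between RG11N and CS (5.77%). These pairs share libraries with each other and with the hybrid and CO13N comparison, and the differences between the counts were not tested.

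The number of called genes depended on single libraries. Without hybrid replicate 2 edgeR called 10 genes and without hybrid replicate 3 it called 7. Without CO13N replicates 1, 2 and 3 it called 12, 13 and 15 genes, and without hybrid replicate 1 it called 19. The 7 genes called in every one of the 12 fits that left out 1 library were CG6912, GstE11, asRNA:CR45600, CG6654, Arc1, Culd and TpnC4. The other 21 all lost their call without hybrid replicate 3, with adjusted p of 0.0551 to 0.318. None of the 28 changed direction in any of the 25 alternative settings. That is no separate support, since all 28 were picked as called and did not overlap in these same libraries. Without CO13N replicate 1, 18 lost their call, with adjusted p of 0.0737 to 0.191, among them fon, CG31809, NijC, Nmdmc, Ir40a, CG8157, GstE2 and Jheh2. With the odorant receptor sum of each library as a covariate 13 genes were called, 12 of them among the 28. The 16 that lost their call there, with adjusted p of 0.0565 to 0.203, were Ir40a, sNPF-R, Cyp6a8, GstE2, Jheh2, Nmdmc, NijC, EMC2B, CG8157, CG9928, CG17321, CG17350, CG31809, CG31810, CG4267 and lncRNA:CR43989.

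**Figure D2:**
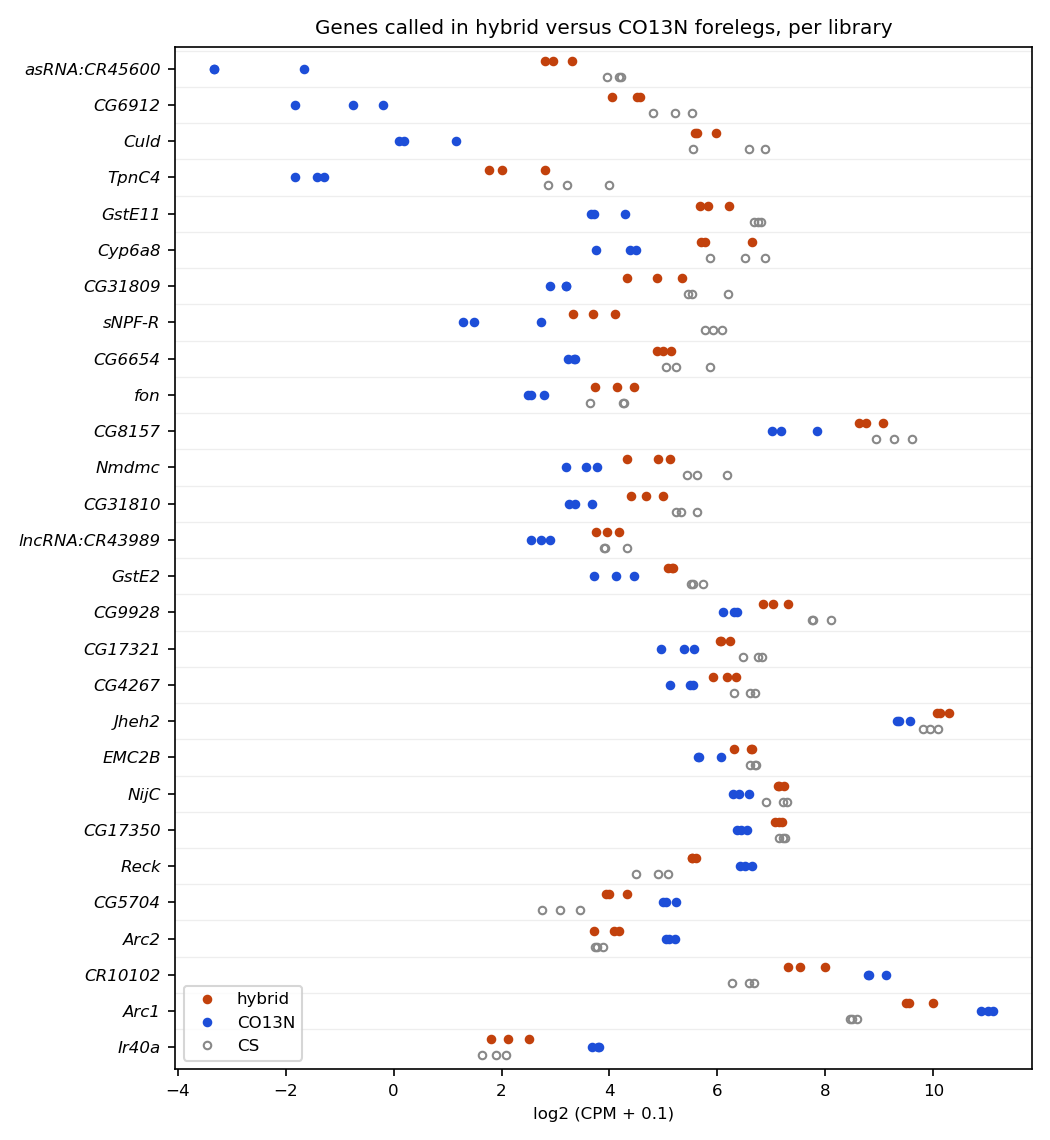
Level of the 28 called genes in each hybrid, CO13N and CS library as log2 of CPM plus 0.1, with the genes ordered by their fold change from the highest in the hybrid at the top. Filled orange points are hybrid libraries, filled blue points CO13N libraries and open grey points CS libraries, and in no gene do the orange and blue points overlap.

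The largest differences were at genes almost silent in CO13N. CG6912 (FBgn0038290; dm6 chromosome 3R, 15135138 to 15137004, minus strand) had 16.4, 22.6 and 23.6 CPM in the hybrid libraries, against 0.181, 0.497 and 0.772 CPM in the CO13N libraries. Every hybrid library was far above every CO13N library, and the CS libraries, at 46.2, 27.7 and 37.2 CPM, were higher still. The log2 fold change of the hybrid over CO13N was 5.42 ± 0.38 (standard error; edgeR adjusted p = 5.68e-07). The noncoding RNA asRNA:CR45600 (3R, 15136985 to 15140121, minus strand) had 9.75, 6.89 and 7.69 CPM in the hybrid and 0, 0 and 0.216 CPM in CO13N, which is 775 counts in all against 7. Its log2 fold change was 6.81 ± 0.68 (edgeR adjusted p = 0.000114), and CS libraries held 17.9, 18.5 and 15.4 CPM. The annotated exons of asRNA:CR45600 and CG6912 overlap on the same strand, and those of asRNA:CR45600 also overlap CG3984 and CG3987 on the opposite strand. They further overlap annotated transposable elements, a Burdock element on the same strand and a Tc1-2 element on the opposite strand. How reads in the shared stretches were assigned is not stated, so both values are uncertain to that extent.

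Culd (chromosome 3L, 8352355 to 8356296, minus strand), which encodes a protein with CUB and LDLa domains known from the trafficking of rhodopsin and TRP channels in photoreceptors, had 63.1, 47.6 and 49.0 CPM in the hybrid, against 0.968, 2.14 and 1.05 CPM in CO13N. CS libraries had 96.3, 46.6 and 118 CPM, a range that takes in the hybrid libraries. The log2 fold change of the hybrid over CO13N was 5.25 ± 0.48 (edgeR adjusted p = 0.00121). The 8 eye markers, which include the opsin gene ninaE, summed to at most 3.26 CPM in the hybrid and 6.99 CPM in CO13N.

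TpnC4 (chromosome 2R, 5503437 to 5507866, minus strand) encodes a troponin C of the flight muscles, a calcium sensor of the thin filament. It had 3.29, 6.86 and 3.91 CPM in the hybrid, against 0.272, 0.183 and 0.309 CPM in CO13N and 7.17, 9.18 and 15.8 CPM in CS. The hybrid libraries lay between the other groups with no overlap to CO13N, and the log2 fold change over CO13N was 4.19 ± 0.65 (edgeR adjusted p = 0.00605). DESeq2 called it as well and voom did not (adjusted p = 0.162). None of the other 27 muscle genes tested was called by edgeR, DESeq2 or voom, and none of them had an unadjusted edgeR p under 0.05. The median log2 fold change of the 28 muscle genes was -0.59, with 2 of 28 positive, and this direction rested on 1 library: without CO13N replicate 1 it was 0.75, with 26 of 28 positive. Myosin heavy chain, Mhc, had 2699, 429.9 and 1179.5 CPM in the hybrid and 5030.4, 873 and 758 CPM in CO13N, so the groups overlapped widely, and its estimate was -0.63 with all libraries and 0.82 without CO13N replicate 1.

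CG6654 (chromosome 3R, 15211277 to 15213658) had 29.4, 31.7 and 35.2 CPM in the hybrid, against 10.2, 10.01 and 9.26 CPM in CO13N, and 37.6, 32.9 and 58.4 CPM in CS. Both groups were tight and well apart, with a log2 fold change of 1.71 ± 0.23 (edgeR adjusted p = 0.000979). Its exons overlap those of Mau2 on the opposite strand, and whether the counting used strand is not stated.

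Genes for detoxifying enzymes were among those that rose. Glutathione S-transferases conjugate glutathione to reactive compounds, and 2 of the 35 tested were called, both higher in the hybrid. Over all genes tested, 28 of 10996 (0.255%) were called, 22 of them higher. GstE11 (chromosome 2R, 18503608 to 18505025, plus strand) had 51.4, 56.6 and 73.8 CPM in the hybrid, against 19.4, 13.1 and 12.4 CPM in CO13N and 112, 102 and 108 CPM in CS. The hybrid libraries lay between those of CO13N and CS, with a log2 fold change over CO13N of 2.02 ± 0.21 (edgeR adjusted p = 5.27e-05). GstE2 (chromosome 2R, 18399486 to 18400375), 103232 bases before GstE11, had 33.8, 35.5 and 36.1 CPM in the hybrid, against 17.4, 13.1 and 21.7 CPM in CO13N, with a log2 fold change of 1.01 ± 0.19 (edgeR adjusted p = 0.0285, and 0.141 without hybrid replicate 3). Of the 35 transferase genes 27 had a positive estimate and the median log2 fold change was 0.24, against -0.0087 over all genes. Without hybrid replicate 3 the median was 0.12, with 25 of 35 positive. The uncalled members had estimates in both directions, among them GstE7 at 0.78 ± 0.19 (edgeR adjusted p = 0.125) and GstE5 at -0.49 ± 0.15 (edgeR adjusted p = 0.491), which were named after their values were seen. Members of this family resemble each other, and the treatment of reads that match several genes is not stated.

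Cytochrome P450 enzymes oxidise hormones, pheromones and foreign compounds. Of the 77 tested genes, 1 was called higher and 0 lower, 12 had an unadjusted edgeR p under 0.05, and DESeq2 and voom called 5 each. Over all genes tested, edgeR called 0.255%, 4.67% had an unadjusted edgeR p under 0.05, DESeq2 called 0.803% and voom 0.327%. The called gene, Cyp6a8 (chromosome 2R, 14887171 to 14889010), had 54.3, 52.0 and 99.9 CPM in the hybrid, against 22.4, 20.7 and 13.4 CPM in CO13N and 91.6, 118 and 58.1 CPM in CS. Its highest hybrid library was replicate 3, and its log2 fold change of 1.87 ± 0.32 (edgeR adjusted p = 0.044) was called in 10 of the 25 alternative settings, with an adjusted p of 0.0551 without hybrid replicate 3. Cyp6a20, a P450 known for its effect on male aggression, had 360.2, 303 and 337 CPM in the hybrid and 498, 494 and 481 CPM in CO13N. The groups did not overlap, but the log2 fold change of -0.56 ± 0.13 missed the threshold with edgeR (adjusted p = 0.0843) and passed it with DESeq2 (adjusted p = 0.000253) and voom (adjusted p = 0.0417). Cyp4d21, known as a sex-specific enzyme needed for mating, was at 3286, 3159.5 and 3437 CPM in the hybrid and 2673, 2005 and 2551 CPM in CO13N, with a log2 fold change of 0.45 ± 0.14 (edgeR adjusted p = 0.503).

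Jheh2 (chromosome 2R, 18855767 to 18858245) encodes an epoxide hydrolase that breaks down juvenile hormone. It had 1074, 1111 and 1249 CPM in the hybrid, against 656, 763 and 645 CPM in CO13N, with CS at 986, 1086 and 894 CPM. The hybrid libraries were all higher than those of CO13N, by 0.73 ± 0.14 on the log2 scale (edgeR adjusted p = 0.0285, and 0.169 without hybrid replicate 3). Of the 12 genes of the takeout family and of juvenile hormone metabolism, it was the 1 called, against 0.255% called over all genes tested. In this list 3 of 12 had an unadjusted edgeR p under 0.05, against 4.67% over all genes. Jheh1, at 0.58 ± 0.19, and Jheh3, at 0.33 ± 0.16, which were named after their values were seen, did not pass (edgeR adjusted p = 0.62 and 1). Exons of Jheh2 overlap those of asRNA:CR46485 on the opposite strand.

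Arc1 and Arc2 were among the 6 genes that fell. Arc1 (chromosome 2R, 14357927 to 14360297, minus strand) had 753, 1016 and 724 CPM in the hybrid, against 2055, 2203 and 1896 CPM in CO13N and 349, 362 and 384 CPM in CS. The hybrid libraries lay between the parent strains, apart from both, with a log2 fold change over CO13N of -1.30 ± 0.17 (edgeR adjusted p = 0.000979). Against CS the hybrid was higher by 1.19 on the log2 scale (edgeR adjusted p = 0.00085), in a comparison that uses the same hybrid libraries. Arc2 (14361924 to 14362825, plus strand) had 16.9, 18.0 and 13.1 CPM in the hybrid, against 32.9, 37.1 and 34.2 CPM in CO13N and 14.6, 13.5 and 13.1 CPM in CS. Here the hybrid libraries overlapped CS but not CO13N, and the log2 fold change over CO13N was -1.12 ± 0.18 (edgeR adjusted p = 0.00916, and 0.0859 without hybrid replicate 3). The pseudogene CR10102, which lies between them, 135 bases from Arc1 and 143 from Arc2, had 185, 254 and 158 CPM in the hybrid and 445, 559 and 443 CPM in CO13N. Its log2 fold change was -1.28 ± 0.22 (edgeR adjusted p = 0.0285), and the sources used here do not say how reads shared by similar sequences were counted.

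Reck (chromosome 3L, 15001238 to 15014062, minus strand) is the homolog of a vertebrate inhibitor of matrix metalloproteases. It had 46.3, 46.2 and 48.7 CPM in the hybrid, against 85.0, 99.1 and 91.2 CPM in CO13N and 29.8, 22.3 and 33.9 CPM in CS. The hybrid libraries lay apart from both parent strains, with a log2 fold change over CO13N of -0.96 ± 0.16 (edgeR adjusted p = 0.01, and 0.0561 without hybrid replicate 3). Exons of Reck overlap those of Prosbeta2 on the opposite strand. CG5704 (3L, 2169553 to 2170971) had 15.8, 15.3 and 19.96 CPM in the hybrid, against 33.1, 31.8 and 37.7 CPM in CO13N, and 6.59, 8.33 and 10.8 CPM in CS. It too lay between the other groups, at -1.01 ± 0.21 on the log2 scale relative to CO13N (edgeR adjusted p = 0.044, and 0.0936 without hybrid replicate 3).

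Ir40a (chromosome 2L, 22189526 to 22214376, minus strand) is an ionotropic receptor known for sensing dry air in the antenna. It had 5.56, 3.38 and 4.25 CPM in the hybrid, against 13.7, 12.7 and 13.9 CPM in CO13N and 4.11, 3.62 and 3.03 CPM in CS. The hybrid libraries overlapped those of CS and were far below CO13N, with a log2 fold change of -1.61 ± 0.29 (edgeR adjusted p = 0.0216, and 0.141 without hybrid replicate 3). The call was also lost with the odorant receptor sum as covariate (edgeR adjusted p = 0.107). Among 38 ionotropic receptor genes tested edgeR called only Ir40a, DESeq2 called 4 and voom 1, and 9 had an unadjusted edgeR p under 0.05. Over all genes tested the shares were 0.255% for edgeR, 0.803% for DESeq2, 0.327% for voom and 4.67% for the unadjusted p. The list's median log2 fold change was 0.08, and -0.04 without hybrid replicate 3.

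sNPF-R (chromosome 3L, 20058511 to 20089007, minus strand), the receptor of short neuropeptide F, had 9.98, 12.8 and 17.0 CPM in the hybrid, against 6.503, 2.35 and 2.72 CPM in CO13N and 60.4, 54.5 and 67.9 CPM in CS. The hybrid libraries lay between those of CO13N and CS, apart from both, with a log2 fold change over CO13N of 1.78 ± 0.34 (edgeR adjusted p = 0.044). This call was kept in 1 of the 12 fits that left out a library, with an adjusted p of up to 0.236. Against CS the hybrid was at -2.20 on the log2 scale (edgeR adjusted p = 0.00319).

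Other genes that rose have varied roles. Nmdmc, a mitochondrial enzyme of folate metabolism (chromosome 3R, 9042508 to 9050555), had 20.1, 34.6 and 29.6 CPM in the hybrid, against 9.10, 11.7 and 13.6 CPM in CO13N, with a log2 fold change of 1.29 ± 0.23 (edgeR adjusted p = 0.0216). The lowest hybrid library was above the highest CO13N library by a modest margin. NijC, a ninjurin of the cell surface (3R, 12695129 to 12697379), had 139, 150.1 and 142 CPM in the hybrid and 78.4, 96.4 and 84.7 CPM in CO13N, a log2 fold change of 0.73 ± 0.13 (edgeR adjusted p = 0.0216). EMC2B, a subunit of the membrane protein complex of the endoplasmic reticulum (3R, 16990334 to 16991878), had 78.7, 98.1 and 100.1 CPM in the hybrid and 49.7, 66.5 and 50.3 CPM in CO13N, at 0.73 ± 0.14 (edgeR adjusted p = 0.0335). All these calls were lost without hybrid replicate 3, with adjusted p of 0.0936 for Nmdmc, 0.0859 for NijC and 0.196 for EMC2B. Exons of NijC overlap those of Past1 on the same strand. On the opposite strand, exons of Nmdmc overlap those of Mst85C and exons of EMC2B those of MESK4.

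Several called genes were neighbours. The clotting gene fon (fondue; chromosome 2L, 19383138 to 19386205, minus strand) had 13.2, 21.9 and 17.4 CPM in the hybrid, against 5.75, 5.49 and 6.76 CPM in CO13N, and rose by 1.55 ± 0.27 on the log2 scale (edgeR adjusted p = 0.0161, and 0.0698 without hybrid replicate 3). CG17350, 44 bases away on the other strand, had 134, 142 and 146 CPM in the hybrid and 82.6, 93.4 and 86.8 CPM in CO13N, at 0.68 ± 0.13 (edgeR adjusted p = 0.0285, and 0.169 without hybrid replicate 3). At both genes the hybrid libraries overlapped those of CS, 12.3 to 19.2 CPM at fon and 142 to 151 CPM at CG17350. CG31809 and CG31810, on the same arm and 1251 bases apart, were the other such pair. CG31809 had 20.02, 29.3 and 40.4 CPM in the hybrid and 9.04, 7.40 and 9.01 CPM in CO13N, at 1.82 ± 0.30 (edgeR adjusted p = 0.0173, and 0.0561 without hybrid replicate 3). CG31810 had 20.9, 25.5 and 31.8 CPM in the hybrid and 10.2, 9.36 and 12.6 CPM in CO13N, at 1.28 ± 0.23 (edgeR adjusted p = 0.0219, and 0.169 without hybrid replicate 3). With the Arc genes and the CG6912 locus, 9 of the 28 called genes lay within 10 kb of another called gene, so the 28 calls are not 28 separate loci.

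The remaining 5 called genes all rose. CG8157 (chromosome 2R, 15325503 to 15326386) was the most abundant of them, with 391, 538 and 433 CPM in the hybrid, against 128, 144 and 231 CPM in CO13N, a log2 fold change of 1.43 ± 0.23 (edgeR adjusted p = 0.0219, and 0.1 without hybrid replicate 3). CG9928 had 114, 131 and 157 CPM in the hybrid, against 82.2, 69.0 and 78.8 CPM in CO13N and 215, 273 and 219 CPM in CS. CG17321 and CG4267 had log2 fold changes of 0.80 ± 0.15 and 0.76 ± 0.16, and CG9928 of 0.81 ± 0.17 (edgeR adjusted p = 0.0285, 0.0484 and 0.0452). The noncoding lncRNA:CR43989 had 15.4, 17.9 and 13.3 CPM in the hybrid and 6.53, 7.32 and 5.74 CPM in CO13N, at 1.25 ± 0.25 (edgeR adjusted p = 0.044). Without hybrid replicate 3 the adjusted p of these 4 genes were 0.18 for CG17321, 0.211 for CG4267, 0.318 for CG9928 and 0.106 for lncRNA:CR43989, whose exons overlap those of IRSp53. Exons of CG4267 overlap those of lncRNA:CR42859.

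None of the called genes was on the X chromosome. A male takes his X from his mother, and since the direction of the cross is not given, the labels do not tell whether the hybrid males carried the X of CO13N or that of CS. Of 1870 X-linked genes tested 0 were called, with 52 (2.78%) at an unadjusted edgeR p under 0.05, 1 called by DESeq2 and the lowest edgeR adjusted p, 0.555, at SelG. Of 9044 genes on the autosomes 28 were called, with 460 (5.09%) at an unadjusted p under 0.05. Groups did not overlap for 9.57% of the X-linked and 11.9% of the autosomal genes, and the interval lay inside 2-fold for 62.2% and 59.5% of them. By arm, 8 of 1942 genes were called on 2L, 9 of 2257 on 2R, 5 of 2081 on 3L and 6 of 2666 on 3R, and 0 of 98 on chromosome 4 and 0 of 17 on the mitochondrial genome. Between the hybrid and CS, 26 X-linked genes (1.39%) and 80 autosomal genes (0.885%) were called, and between CO13N and CS 41 (2.19%) and 301 (3.33%). The single X-linked gene called by DESeq2, Ir8a, an olfactory co-receptor named after its values were seen, had 0, 0 and 10.3 CPM in the hybrid and 0 CPM in each CO13N library. No test was made of the difference between the X and the autosomes, since neighbouring genes are not independent.

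**Figure D3:**
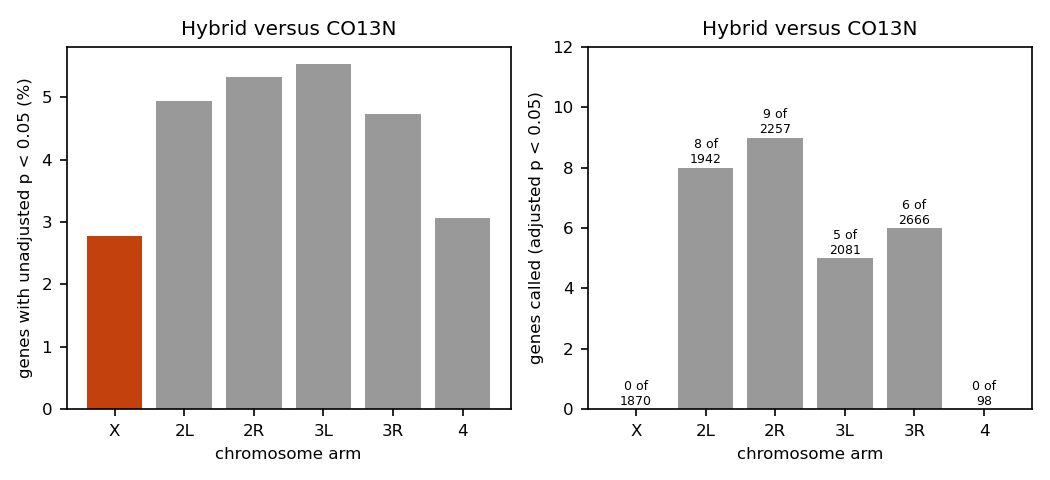
Genes of each chromosome arm in the comparison of the hybrid with CO13N, as the percentage with an unadjusted edgeR p under 0.05 (left) and the number called at an adjusted p under 0.05 (right). The X, in orange, has 2.78% and 0 of 1870 genes, while the 4 large autosomal arms have 5 to 9 called genes each; the parent that gave the hybrid its X is not stated.

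Genes of pheromone taste and courtship showed no called difference. Of 17 tested, edgeR, DESeq2 and voom called 0, 1 had an unadjusted edgeR p under 0.05, the median log2 fold change was 0.03, and the interval of 12 lay inside 2-fold. For fru, libraries had 78.5, 93.4 and 74.0 CPM in the hybrid and 87.5, 85.6 and 84.0 CPM in CO13N, a log2 fold change of -0.06 with a 95% interval of -0.37 to 0.24. For dsx, they had 185, 181 and 190.3 CPM in the hybrid and 172, 193 and 182 CPM in CO13N, at 0.02 with an interval of -0.26 to 0.31. Both genes had overlapping groups and intervals that exclude a 2-fold difference.

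The pickpocket subunits of the pheromone neurons overlapped between the groups. ppk23 had 1060.5, 1118 and 779 CPM in the hybrid and 886, 1176 and 1309.5 CPM in CO13N, with a 95% interval of -0.57 to 0.19 around a log2 fold change of -0.19. ppk25 had 129, 133 and 122 CPM in the hybrid and 95.01, 115.3 and 165 CPM in CO13N, with an interval of -0.47 to 0.53. ppk29 had 80.2, 87.6 and 60.7 CPM in the hybrid and 77.5, 88.5 and 110.3 CPM in CO13N, with an interval of -0.72 to 0.17. All 3 intervals lie inside 2-fold, and over the 18 pickpocket genes tested edgeR, DESeq2 and voom called 0, with 1 at an unadjusted edgeR p under 0.05.

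Other taste genes were measured less well. Gr32a, a receptor known from the avoidance of males, had 5.07, 2.88 and 6.14 CPM in the hybrid and 5.08, 5.96 and 2.16 CPM in CO13N, and its interval of -1.27 to 1.45 does not exclude a 2-fold difference. The same holds for Gr33a, with an interval of -0.95 to 1.81, and Gr39a, with -1.99 to 0.92. Of 33 gustatory receptor genes tested edgeR and voom called 0 and DESeq2 1, 2 had an unadjusted edgeR p under 0.05, and 3 had an interval inside 2-fold, so most differences of that size were not detectable in this family. Among all genes tested DESeq2 called 0.803%, and 4.67% had an unadjusted edgeR p under 0.05. Gr68a, below the filter on low counts, had 0 counts in the hybrid libraries and 14, 0 and 18 counts in CO13N. Obp57e, which is known from taste hairs of the leg, had 53.1, 75.6 and 83.9 CPM in the hybrid and 47.3, 53.6 and 50.2 CPM in CO13N, at 0.49 ± 0.19 (edgeR adjusted p = 0.967), and its partner Obp57d had 0 counts in all libraries. Of the 20 CheA and CheB proteins of taste hairs edgeR, DESeq2 and voom called 0, also with 0 at an unadjusted edgeR p under 0.05, and 16 had an interval inside 2-fold.

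**Figure D4:**
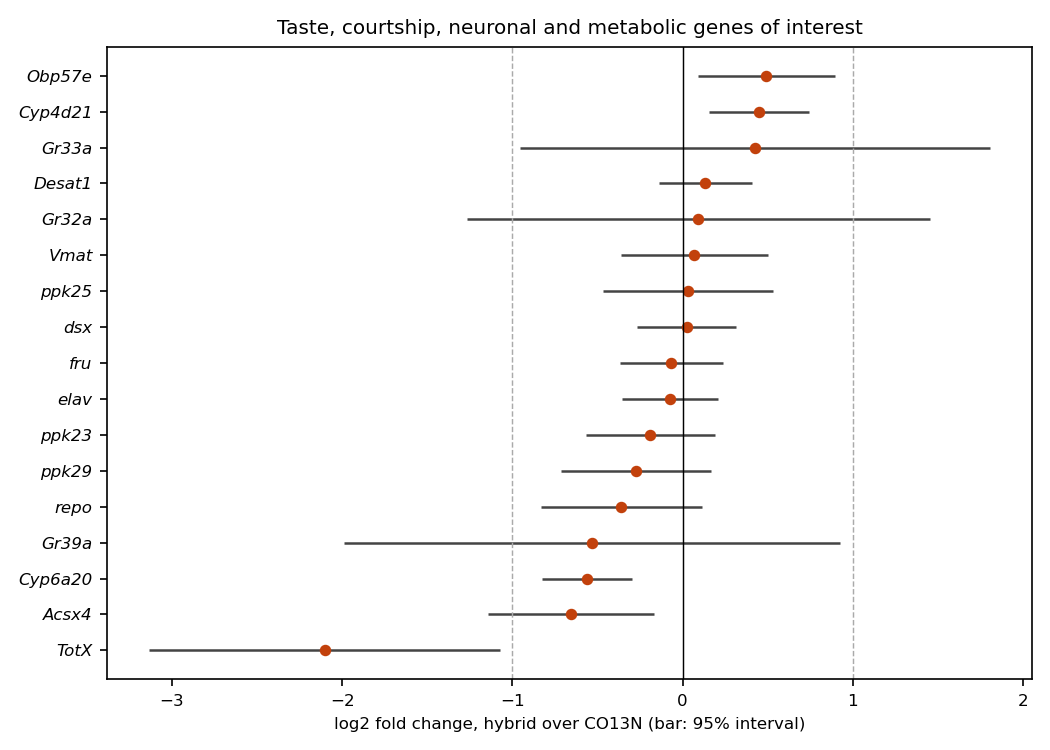
Log2 fold change of the hybrid over CO13N (points) with its 95% interval (bars) for genes of taste, courtship, neurons, glia and metabolism, none of them called by edgeR; dashed lines mark a 2-fold difference in either direction. The intervals of fru, dsx, ppk23, ppk25 and ppk29 lie between the dashed lines, those of Gr32a, Gr33a and Gr39a cross at least 1 of them, and that of TotX lies beyond the lower one.

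Pan-neuronal and voltage-gated channel genes had narrow intervals, other neuronal lists less so, and none of these lists had a called gene. All 21 pan-neuronal genes tested had an interval inside 2-fold, with a median log2 fold change of -0.03, and edgeR, DESeq2 and voom called 0, with 0 at an unadjusted edgeR p under 0.05. For elav, an RNA-binding protein of neurons, libraries had 69.5, 59.6 and 61.3 CPM in the hybrid and 62.0, 64.2 and 74.1 CPM in CO13N, with an interval of -0.36 to 0.21. Of 22 voltage-gated channel genes 21 had an interval inside 2-fold, and again 0 were called by any of the 3 tools or had an unadjusted edgeR p under 0.05. Vmat, the vesicular transporter of monoamines, had 436, 455 and 409.7 CPM in the hybrid, against 331, 543 and 367 CPM in CO13N and 199, 212 and 145 CPM in CS. Its hybrid and CO13N libraries overlapped, with an interval of -0.36 to 0.50. Of 15 genes of transmitter synthesis and transport tested, 9 had an interval inside 2-fold. Among 46 receptors for amines, acetylcholine, glutamate and GABA the 3 tools called 0, 3 had an unadjusted edgeR p under 0.05, and the lowest was at the dopamine receptor Dop1R2, with 11.8, 8.80 and 5.41 CPM in the hybrid and 15.7, 17.8 and 16.5 CPM in CO13N (log2 fold change -0.94 ± 0.28, edgeR adjusted p = 0.446). The interval lay inside 2-fold for 24 of these 46 receptors. Of 23 neuropeptide genes 0 were called by the 3 tools and 1 had an unadjusted edgeR p under 0.05, but only 3 had an interval inside 2-fold.

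The 12 glial genes, with repo at -0.36 ± 0.23 on the log2 scale, and the 18 leg and segment identity genes had 0 calls by edgeR, DESeq2 and voom and 0 genes at an unadjusted edgeR p under 0.05. The interval lay inside 2-fold for 10 of the 12 and 14 of the 18. Among genes used by every cell, 83 of 86 ribosomal protein genes and all 8 genes of the dosage compensation complex, which doubles transcription from the male X, had intervals inside 2-fold. Neither list had a call by the 3 tools or a gene at an unadjusted edgeR p under 0.05. Of 72 nuclear genes of oxidative phosphorylation 60 had such an interval, with 0 calls by the 3 tools and 1 gene at an unadjusted edgeR p under 0.05.

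Immune genes were mostly lower in the hybrid by estimate, without a call by edgeR. Of the 25 antimicrobial peptide genes tested 5 had a positive estimate, against 5319 of all 10996, and the median log2 fold change was -0.71. For these 25 genes edgeR and voom called 0, DESeq2 called 1 and 3 had an unadjusted edgeR p under 0.05. Over all genes tested DESeq2 called 0.803%, and 4.67% had an unadjusted edgeR p under 0.05. The summed level of the antimicrobial peptide genes was 594, 577 and 972 CPM in the hybrid and 967, 1276 and 1124 CPM in CO13N, so hybrid replicate 3 reached the lowest CO13N library. BomBc1, a bomanin, had 6.19, 8.23 and 3.24 CPM in the hybrid and 20.3, 15.6 and 28.6 CPM in CO13N, at -1.87 ± 0.47 (edgeR adjusted p = 0.295). Among 24 immune recognition genes 6 had a positive estimate and the median was -0.23, with 0 calls by the 3 tools and 1 gene at an unadjusted edgeR p under 0.05. That gene, PGRP-LA, a peptidoglycan recognition protein, had 32.4, 45.3 and 44.3 CPM in the hybrid and 67.9, 53.6 and 64.6 CPM in CO13N. Of 23 heat shock protein genes 10 had a positive estimate, the median was -0.07, the 3 tools called 0 and 1 had an unadjusted edgeR p under 0.05. Hemocyte markers summed to at most 8.76 CPM in the hybrid and 9.70 CPM in CO13N, and fat body markers to at most 13.1 CPM and 9.77 CPM.

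TotX, a secreted Turandot stress peptide, had 41.3, 34.7 and 54.6 CPM in the hybrid, against 236, 159 and 166 CPM in CO13N and 10.98, 4.90 and 2.82 CPM in CS. The 3 groups did not overlap, with the hybrid in between, and the log2 fold change over CO13N was -2.10 ± 0.45. It missed the threshold in the 12-library model (edgeR adjusted p = 0.244) and passed in 6 of the 25 alternative settings, among them DESeq2, voom and the fit to the 6 libraries alone. Acsx4, named for its likeness to acyl-CoA synthetases, had 33.3, 31.6 and 34.8 CPM in the hybrid, against 45.5, 59.3 and 52.3 CPM in CO13N and 5.81, 2.61 and 5.33 CPM in CS. Here too all hybrid libraries were below those of CO13N, at -0.66 ± 0.23 (edgeR adjusted p = 0.797). Desat1, a desaturase of pheromone synthesis, was at 0.13 ± 0.13, and of the 15 acyl-CoA and cuticular hydrocarbon genes edgeR and voom called 0, DESeq2 1 and 3 had an unadjusted edgeR p under 0.05. Among all genes tested DESeq2 called 0.803%, and 4.67% had an unadjusted edgeR p under 0.05.

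**Figure D5:**
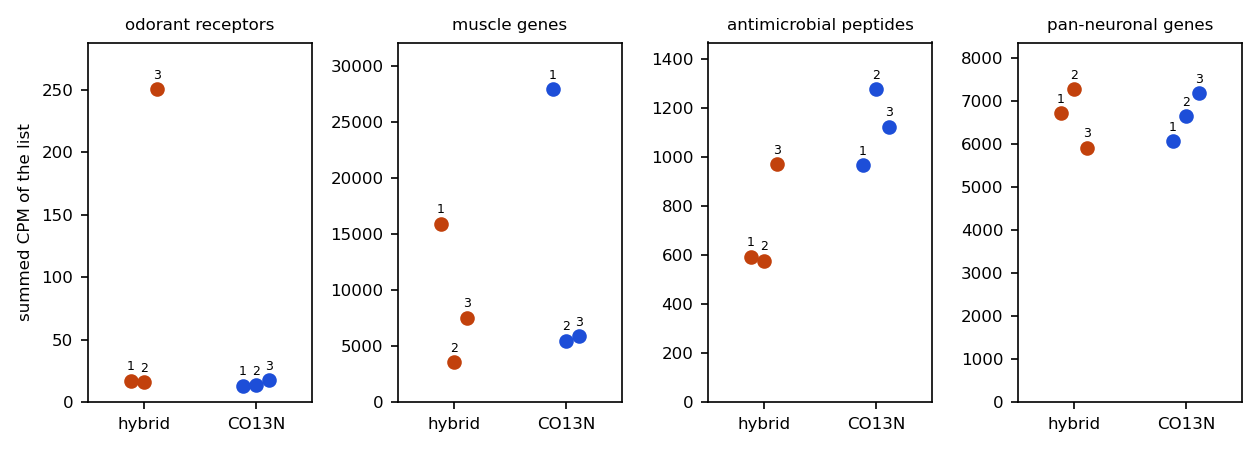
Summed CPM of 4 gene lists in each hybrid (orange) and CO13N (blue) library, with replicate numbers above the points and a vertical axis from 0 for each list. Hybrid replicate 3 stands at 250.3 CPM for odorant receptors and CO13N replicate 1 at 27877 CPM for muscle genes, while the pan-neuronal sums of the groups overlap.

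Odorant receptor genes were high in 1 of the 3 hybrid libraries. Of 41 odorant receptor genes tested edgeR and voom called 0, DESeq2 called 6 and 13 had an unadjusted edgeR p under 0.05, and 35 of 41 had a positive estimate, but 15 of 41 without hybrid replicate 3. Over all genes tested edgeR called 0.255%, voom 0.327% and DESeq2 0.803%, and 4.67% had an unadjusted edgeR p under 0.05. The olfactory protein lush had 21.5, 17.5 and 244 CPM in the hybrid and 59.7, 75.9 and 141 CPM in CO13N, so the first 2 hybrid libraries were below CO13N, and Or65c had 22, 16 and 47 counts in the hybrid and 0 in CO13N (both named after their values were seen). The antennal odorant-binding protein Obp83a had 4.74, 6.86 and 1284 CPM in the hybrid, against 3.51, 4.76 and 6.98 CPM in CO13N, and 375, 1213 and 619.7 CPM in CS. The odorant receptor sum was also high in the CS libraries, at 88.6, 248 and 139 CPM, and in RG11N replicate 3, at 138 CPM. Among 35 odorant-binding proteins edgeR called 0, voom 1 and DESeq2 4, with 8 at an unadjusted edgeR p under 0.05. Of these 35, 26 had a positive estimate, with a median log2 fold change of 0.25. Without hybrid replicate 3 it was 20 of 35, with a median of 0.02. The part of antennal RNA in the 28 calls was not tested beyond the fits without hybrid replicate 3 and with the odorant receptor sum as covariate.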

How the data were processed

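RNA of male forelegs was measured in 12 libraries, 3 for each of 4 genotypes. Per the labels, polyA RNA was taken from total RNA (PicoPure kit after lysis in TriZol) and made into Nextera XT libraries. Values are raw counts per gene as deposited by the authors. Subread and build dm6 are named in the submitters' processing notes; versions, settings, annotation release, strandedness and the treatment of multimapping reads are not given in the sources used here. Symbols, positions and exon overlaps came from the Ensembl annotation BDGP6.54.115, whose assembly is that of dm6, and 17710 of 17807 gene identifiers had a symbol.

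All 12 libraries were fitted with edgeR 4.0.16 under R 4.3.3, with 1 mean per genotype, TMM scaling and robust quasi-likelihood tests. The low-count filter was filterByExpr (minimum count 10). The threshold was an adjusted p of 0.05 (Benjamini-Hochberg) over 10996 genes. Standard errors and 95% intervals were derived from the F statistic, and 24 genes without a standard error were counted as not inside 2-fold. CPM of single genes used TMM-scaled library sizes and list sums total counts. For genes with no count in a group, ratios were taken against 3 counts pooled over the group, which covers counting error only.

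Genes named in the text are all called genes, per list the called members or else the gene with the lowest p, a fixed set of taste, courtship and metabolic genes, and the largest non-overlapping uncalled differences; genes outside these rules are marked in the text as named after their values were seen. The members and lists were chosen with earlier results of these data known. Replicate numbers were not treated as pairs in the main fit, since the labels do not state that they pair libraries. Same-numbered libraries of the hybrid and CO13N had correlations of their deviations of 0.098, 0.0795 and 0.0352. Differently numbered ones had lower values, -0.0887 to 0.0216. Deviations were taken from the mean of each genotype, which ties these correlations to each other, so their contrast is no separate evidence of pairing. Whether same-numbered libraries share an origin was not tested. Alternatives were RLE and upper quartile factors, other filters, DESeq2 1.42.0, voom (limma 3.58.1), the 6 libraries alone, replicate number as a factor, odorant receptor or muscle sums as covariates, non-robust dispersion and leaving out each library. Scripts were tested on simulated counts with the spread estimated from these libraries. There edgeR recovered 41% of 100 planted 2-fold differences and 79% of 100 planted 4-fold differences, so many differences of 2-fold can be missed. DESeq2 recovered 45% and 87%, and voom 28% and 71%. Genes called without a planted difference numbered 5 for edgeR, 39 for DESeq2 and 3 for voom, so a call by DESeq2 alone is less certain.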

Additional observations from a re-analysis of the deposited data

How the results depend on the processing

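Of the 28 genes called by edgeR, 6 were called in all 25 alternative settings and 3 in 10 or fewer. DESeq2 called 88 genes, 69 higher and 19 lower, with 1 on the X. A fit to the hybrid and CO13N libraries alone called 30, 12 of them lower, and voom 36, 14 of them lower. With the odorant receptor sum as covariate 13 genes were called, 8 of them higher, and with non-robust dispersion 17, of them 11 higher. Leaving out 1 library gave 7 to 30 genes called, 6 to 23 of them higher and 1 to 10 lower, although these fits tested more genes (11446 to 11547). Without hybrid replicate 3 and CO13N replicate 1 together, a setting chosen after seeing the data, 9 were called, 8 higher and 1 lower. The cause of these changes was not tested. Replicate numbers share no stated origin, and a replicate block called 26 genes in the 12-library model and 59 in the 6 libraries alone, 37 higher and 22 lower. The number of genes with an interval inside 2-fold stayed between 5740 and 6912.

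Of 63 named genes that were not called, 13 changed sign in some setting, all at log2 fold changes with an adjusted p of 1. With the odorant receptor covariate fru was at 0.0283 and Obp83a at -0.0316, and with the replicate block Mst77F at 0.12. With hybrid replicate 3 and CO13N replicate 1 both left out, dsx was at -0.0349, fru 0.0176, Obp83a -0.0148, Gr32a -0.0334, ppk25 -0.10, Vmat -0.0303, Gr39a 0.0879, Mhc 0.94 and SerT -0.0556. Over the fits that left out 1 library the ranges were -0.00919 to 0.0709 for dsx, -0.15 to 0.00441 for fru, -0.22 to 0.38 for Gr32a, -0.12 to 0.29 for ppk25, -0.14 to 0.0174 for elav, -0.0634 to 0.32 for Vmat, -1.46 to 0.82 for Mhc, -5.99 to 0 for Gr39b, -0.48 to 0.91 for obst-A and -1.49 to 0.55 for Mst77F. A difference of 2-fold was not excluded for 4405 of 10996 genes, rare ones and also abundant ones such as Mhc and tim.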

Other observations

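Some genes that missed the threshold did not overlap between the groups, as was so for 11.5% of all genes tested. Those named here were picked among them for their large estimates. Ir68a, an ionotropic receptor known for sensing moist air, had 2.34, 1.31 and 0.591 CPM in the hybrid, against 5.11, 6.90 and 10.4 CPM in CO13N and 0.442, 0 and 0.209 CPM in CS (log2 fold change of the hybrid over CO13N -2.40 ± 0.71, edgeR adjusted p = 0.431). The P450 gene Cyp4ac1 had 2.37, 4.48 and 4.25 CPM in the hybrid and 16.8, 19.9 and 12.5 CPM in CO13N (-2.15 ± 0.59, edgeR adjusted p = 0.338), and was called in 4 of the 25 alternative settings, voom among them. In the other direction, CG33120 had 2.90, 6.49 and 5.29 CPM in the hybrid and 0, 0.549 and 0 CPM in CO13N, and CG3502 had 3.46, 3.31 and 4.14 CPM against 0.635, 0.209 and 0 CPM (edgeR adjusted p = 0.503 and 0.436). CG14118 and Obp47a, also higher in the hybrid, and Muc11A, CAH13 and CG33927, lower in it, were separated at a few CPM or less. MFS9 and CG9497 were highest in hybrid replicate 3. MFS9 had 16.3, 19.5 and 64.8 CPM in the hybrid, against at most 4.598 CPM in CO13N. CG9497 had 8.56, 10.3 and 454 CPM in the hybrid, against at most 7.07 CPM in CO13N. DESeq2 called MFS9 (adjusted p = 5.5e-06), as did edgeR with the odorant receptor sum as covariate.

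At the lowest levels, 115 of the 17807 genes in the counts had at least 30 counts over the hybrid libraries and 0 in CO13N. Only 19 of them had counts in all 3 hybrid libraries, and the rest had none in at least 1. The reverse held for 93 genes, of which 30 had counts in all 3 CO13N libraries. CG43117, named after its values were seen, had 52, 51 and 21 counts in the hybrid and 0 in CO13N, at least 44.4-fold higher against 3 counts pooled over CO13N. The transcription factor gene dmrt11E, on the X and also named after its values were seen, had 0 counts in the hybrid and in CS but 26, 21 and 53 counts in CO13N, at least 31-fold lower in the hybrid against 3 pooled counts. Neither passed edgeR's test (adjusted p = 0.409 and 0.98). DESeq2 called CG43117 (adjusted p = 0.00207) and did not call dmrt11E. The counts show only that these transcripts were not detected at this depth.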
